A study of Mus musculus with 8 samples.

Results

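The DC-SIGN (Cd209) family of the mouse was followed over 8 Affymetrix arrays of sorted colonic and splenic mononuclear phagocytes, with 1 array for each of 8 groups. All 7 annotated members, Cd209a to Cd209g, had a probe set carrying 1 gene symbol, out of 19938 genes with such a probe set. Each member was represented by the probe set with the highest mean over the 8 arrays. The family was chosen by these same arrays, because some members were higher in the colonic CX3CR1int arrays and another in the array of resident macrophages. The levels in CX3CR1int against CX3CR1hi cells are therefore a description with no test.

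All groups came from C57BL/6 mice of genotype Cx3cr1gfp/+, in which 1 copy of the fractalkine receptor gene carries a green fluorescent reporter, and all cells were sorted by flow cytometry. Both CX3CR1int arrays held cells of the colonic lamina propria at day 4 of dextran sodium sulphate (DSS) colitis, a chemical injury of the gut lining, and were labelled Ly6Clo and Ly6Chi (both labelled male). The 4 CX3CR1hi arrays were also colonic. They held F4/80hi cells at day 4 of colitis (male), monocyte-reconstituted resident macrophages in steady state (female), F4/80hi cells in steady state (male) and resident macrophages in steady state (female). The splenic arrays held Ly6Chi monocytes at day 4 of colitis (male) and in steady state (female). The labels give no age, no number of mice per array and no account of how the resident macrophages were reconstituted. The array of steady-state splenic monocytes went against its sex label in part, since it carried the Y-linked RNA Eif2s3y at 10.28 beside Xist, the RNA of the silenced X chromosome, at 10.04. Both CX3CR1hi arrays labelled female carried Xist at 12.28 and 12.17 and Eif2s3y at 4.34 and 4.36.

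DC-SIGN is a C-type lectin, a cell-surface receptor that uses calcium to bind mannose- and fucose-containing glycans on microbes and on host glycoproteins. Its relatives belong to the same lectin family. Humans have DC-SIGN and one close relative, whereas the mouse family was expanded into a tandem cluster whose members differ in the cells that make them. Cd209a, called mouse DC-SIGN, is known from dendritic cells, including those that arise from monocytes. Cd209b, or SIGNR1, is known from marginal zone macrophages of the spleen, where it captures microbial polysaccharides. Cd209f is often listed among the genes of perivascular and other long-lived tissue macrophages.

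In the RefSeq annotation of assembly GRCm38.p6 the 7 genes follow each other on chromosome 8 in the order Cd209a, Cd209e, Cd209d, Cd209b, Cd209c, Cd209f and Cd209g. Their promoter windows, each of 300 bases from 250 before to 50 after the annotated start, are RefSeq sequences of that build, and all 7 members matched. They are shown for Cd209a, Cd209d and Cd209f, and for Cd209g and Cd209b, whose windows were the most similar to those of Cd209f and Cd209d. The windows of Cd209c and Cd209e are not shown. Capitals mark 4 short motifs, which were chosen after the sequences had been read and searched on both strands, so that a match to the other strand shows as the reverse complement (TTCCGG for the ETS core). These are the ETS core CCGGAA, the PU.1 core GAGGAA (PU.1 is an ETS-family factor of myeloid cells), the AP-1 motif TGANTCA and the TATA box TATAAA. No motif overlaps another in the windows shown. The windows of Cd209f (chr8:4105715-4106014, minus strand) and Cd209g (chr8:4134486-4134785, plus strand) come first, then those of Cd209d (chr8:3878450-3878749, minus strand), Cd209b (chr8:3926792-3927091, minus strand) and Cd209a (chr8:3748935-3749234, minus strand), each 5′ to 3′ on the strand of its gene.
Cd209f: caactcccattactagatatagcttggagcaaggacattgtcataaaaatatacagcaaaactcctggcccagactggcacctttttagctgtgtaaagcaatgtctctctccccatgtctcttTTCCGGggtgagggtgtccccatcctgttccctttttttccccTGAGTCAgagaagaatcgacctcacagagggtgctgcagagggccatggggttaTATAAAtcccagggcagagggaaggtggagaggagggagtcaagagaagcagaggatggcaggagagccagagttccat
Cd209g: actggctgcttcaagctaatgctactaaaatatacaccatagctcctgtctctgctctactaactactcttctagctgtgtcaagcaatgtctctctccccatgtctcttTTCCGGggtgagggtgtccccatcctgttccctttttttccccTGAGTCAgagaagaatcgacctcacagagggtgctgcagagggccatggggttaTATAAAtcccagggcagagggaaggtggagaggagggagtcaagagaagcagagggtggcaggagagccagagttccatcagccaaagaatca
Cd209d: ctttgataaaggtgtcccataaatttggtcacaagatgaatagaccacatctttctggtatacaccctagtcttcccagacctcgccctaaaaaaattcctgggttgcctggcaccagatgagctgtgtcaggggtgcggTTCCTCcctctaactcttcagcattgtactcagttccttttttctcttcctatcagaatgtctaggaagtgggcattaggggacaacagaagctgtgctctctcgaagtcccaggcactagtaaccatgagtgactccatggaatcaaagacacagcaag
Cd209b: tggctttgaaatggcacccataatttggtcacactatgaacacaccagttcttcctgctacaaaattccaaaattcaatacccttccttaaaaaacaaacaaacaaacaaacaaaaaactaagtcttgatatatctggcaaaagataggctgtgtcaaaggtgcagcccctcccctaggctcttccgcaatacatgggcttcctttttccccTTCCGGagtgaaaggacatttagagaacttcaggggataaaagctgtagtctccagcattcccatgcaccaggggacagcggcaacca
Cd209a: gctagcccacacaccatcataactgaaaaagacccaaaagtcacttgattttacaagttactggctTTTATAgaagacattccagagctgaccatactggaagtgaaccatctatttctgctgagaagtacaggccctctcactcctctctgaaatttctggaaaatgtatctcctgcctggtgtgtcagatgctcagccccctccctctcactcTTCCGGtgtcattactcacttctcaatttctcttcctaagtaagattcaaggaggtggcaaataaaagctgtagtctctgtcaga

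The best local alignment of the Cd209f and Cd209g windows had 260 columns, of which 242 were identical, 13 were mismatches and 5 were gaps. That is 93.1% identity. Of the 21 pairs this one had the most identical bases. Cd209b with Cd209d came next, with the longest alignment and 182 of 290 columns identical (62.8%), and Cd209a shared 131 identical bases with Cd209e. The window of Cd209c shared no more than 46 identical bases with that of any other member. Cd209f and Cd209g both held the ETS core, the AP-1 motif and the TATA box. Counted from the annotated start, the leftmost base of the TATA box lay at -29 in Cd209f and at -43 in Cd209g, and the AP-1 motif at -83 and -97. The AP-1 motif was found in these 2 of 7 windows and in 7.81% of the 32851 promoter windows of the RefSeq table. The ETS core was found in 5 of 7 windows (Cd209a, Cd209b, Cd209e, Cd209f and Cd209g) and in 14.9% of all windows. The PU.1 core was found in 1 of 7 windows, that of Cd209d at -110, and in 28.3% of all windows. The TATA box was found in 3 of 7 windows and in 13.6% of all windows, and in Cd209a it lay on the other strand at -184. A match is a description of letters and not of a bound site.

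**Figure D1:**
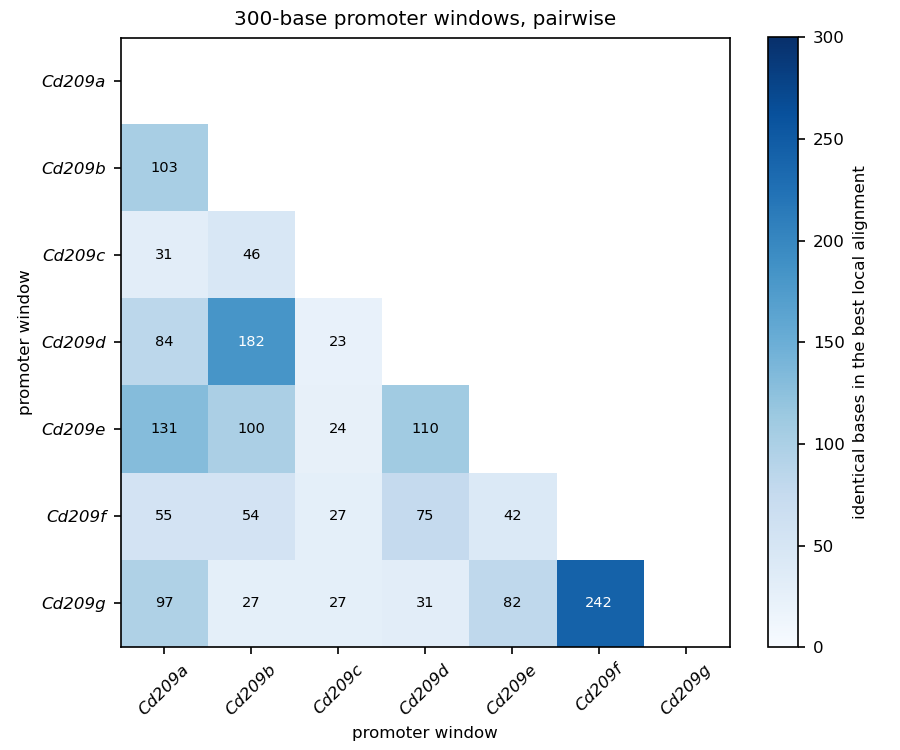
Identical bases in the best local alignment of each pair of the 7 Cd209 promoter windows of 300 bases. The colour scale and the number in each cell give the count, which reached 242 for Cd209f with Cd209g and 182 for Cd209b with Cd209d.

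Levels are deposited log2 intensities, which ran from 3.37 to 14.31 over all probe sets, and a difference of 1 is 2-fold. Array medians lay between 5.77 and 5.87 and served as the mark of a dim probe set. Levels of different probe sets cannot be compared with each other, so each member is set only against itself. On this mark Cd209a was at or above the median on 7 arrays, Cd209d on 5, Cd209e on 3, Cd209c on 2 and Cd209f on 2. Cd209b and Cd209g were below it on all 8 arrays. A gene entered the tests when it reached the median on at least 2 arrays, as 5 of 7 members and 10673 of 19938 genes did. Cd209c and Cd209f passed through the arrays of 1 population alone, so their difference from the other populations was partly fixed by the filter.

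The colonic populations matched their sort on the receptor itself. Cx3cr1 was 7.51 and 7.95 on the CX3CR1int arrays, 10.88 to 11.34 on the CX3CR1hi arrays and 9.95 and 10.76 on the splenic arrays. Macrophage markers averaged 9.28 and 9.94 on the CX3CR1int arrays, 11.75 to 11.95 on the CX3CR1hi arrays and 9.66 and 9.30 on the splenic arrays. Dendritic cell markers averaged 9.91 in CX3CR1int Ly6Clo cells, 7.94 in CX3CR1int Ly6Chi cells, 6.61 to 6.73 in CX3CR1hi cells and 7.27 and 7.14 in splenic monocytes. Monocyte markers averaged 6.97 in CX3CR1int Ly6Clo cells, 10.05 in CX3CR1int Ly6Chi cells, 6.30 to 6.67 in CX3CR1hi cells and 10.81 and 10.75 in splenic monocytes. Epithelial markers averaged 9.44 to 11.52 on the 6 colonic arrays and 5.71 and 5.04 on the splenic ones, with 8 of 8 at or above the array median on each colonic array; the part of RNA from other colonic cells in the differences from spleen was not tested. In such bulk samples fewer cells of a type and less RNA per cell cannot be told apart. Because each group had 1 array, arrays of a population served as replicates in the tests although their labels differ, and p-values measure only the spread between these arrays.

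Cd209a, the mouse gene named DC-SIGN, was high in the cells with intermediate CX3CR1 and in splenic monocytes. Its level was 12.38 in CX3CR1int Ly6Clo cells and 11.69 in CX3CR1int Ly6Chi cells, against 8.18 in colitis CX3CR1hi F4/80hi cells, 5.45 in reconstituted, 8.14 in steady-state F4/80hi and 7.86 in resident macrophages. It was 10.64 in colitis and 10.24 in steady-state splenic monocytes. The order was CX3CR1int, then splenic, then CX3CR1hi, and no array of one population overlapped another. Of all genes past the filter 23.6% had both CX3CR1int arrays above all CX3CR1hi arrays. The share with the whole order was not counted. Among all 35399 probe sets it stood at percentile 99.0 on the CX3CR1int Ly6Clo array and at 45.2 on the reconstituted array. The means were 12.04 ± 0.49 in CX3CR1int cells (SD, n = 2), 7.41 ± 1.31 in CX3CR1hi cells (SD, n = 4) and 10.44 ± 0.28 in splenic monocytes (SD, n = 2).

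Cd209d, or SIGNR3, a receptor for fungal and mycobacterial glycans, had the same order of populations. Its level was 9.35 in CX3CR1int Ly6Clo and 8.59 in CX3CR1int Ly6Chi cells, against 5.40 in colitis F4/80hi, 4.86 in reconstituted, 5.94 in steady-state F4/80hi and 5.63 in resident CX3CR1hi cells. Splenic monocytes had 6.54 in colitis and 6.73 in steady state. The populations did not overlap, for which the share of all genes was not counted, and the CX3CR1hi levels lay close to or below the array median.

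Cd209c, or SIGNR2, was bright in CX3CR1int cells alone. Its level was 9.14 in the Ly6Clo and 6.94 in the Ly6Chi cells, against 4.87 in colitis F4/80hi, 4.56 in reconstituted, 4.98 in steady-state F4/80hi and 4.80 in resident CX3CR1hi cells, and 5.27 and 4.80 in colitis and steady-state splenic monocytes. The 6 arrays outside the CX3CR1int population were all below their median, and CX3CR1hi and splenic arrays overlapped.

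Cd209e, or SIGNR4, differed least among the members above the median. It was 6.66 in CX3CR1int Ly6Clo and 6.39 in CX3CR1int Ly6Chi cells, against 5.12 in colitis F4/80hi, 4.79 in reconstituted, 6.39 in steady-state F4/80hi and 5.73 in resident CX3CR1hi cells, and 5.23 and 5.24 in colitis and steady-state splenic monocytes. The steady-state F4/80hi array all but reached the CX3CR1int Ly6Chi array. Splenic levels lay inside the range of the CX3CR1hi arrays.

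Cd209f, or SIGNR8, ran the other way and divided the CX3CR1hi arrays themselves. It was 4.34 in CX3CR1int Ly6Clo and 4.32 in CX3CR1int Ly6Chi cells, against 8.13 in colitis F4/80hi, 4.93 in reconstituted, 5.33 in steady-state F4/80hi and 8.48 in resident CX3CR1hi cells, and 4.31 and 4.28 in colitis and steady-state splenic monocytes. Only the resident and the colitis F4/80hi arrays were above their median, at percentiles 77.6 and 74.2. CX3CR1int and splenic levels lay between percentiles 4.64 and 9.19.

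Cd209b and Cd209g stayed dim throughout. Cd209b ran from 4.50 to 4.84 over the 8 arrays and Cd209g, or SIGNR7, from 4.63 to 5.14, spans of 0.34 and 0.51. The marginal zone macrophage genes Marco (4.40 to 5.03) and Cd5l (4.01 to 5.03) were likewise below the median on all 8 arrays. They belong to a list of 7 marginal zone and red pulp macrophage genes. The other 5 (Siglec1, Spic, Vcam1, Slc40a1 and Hmox1) were at or above the median on all 8 arrays. For a dim probe set, RNA at a low level and a probe set that responds poorly cannot be told apart here.

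**Figure D2:**
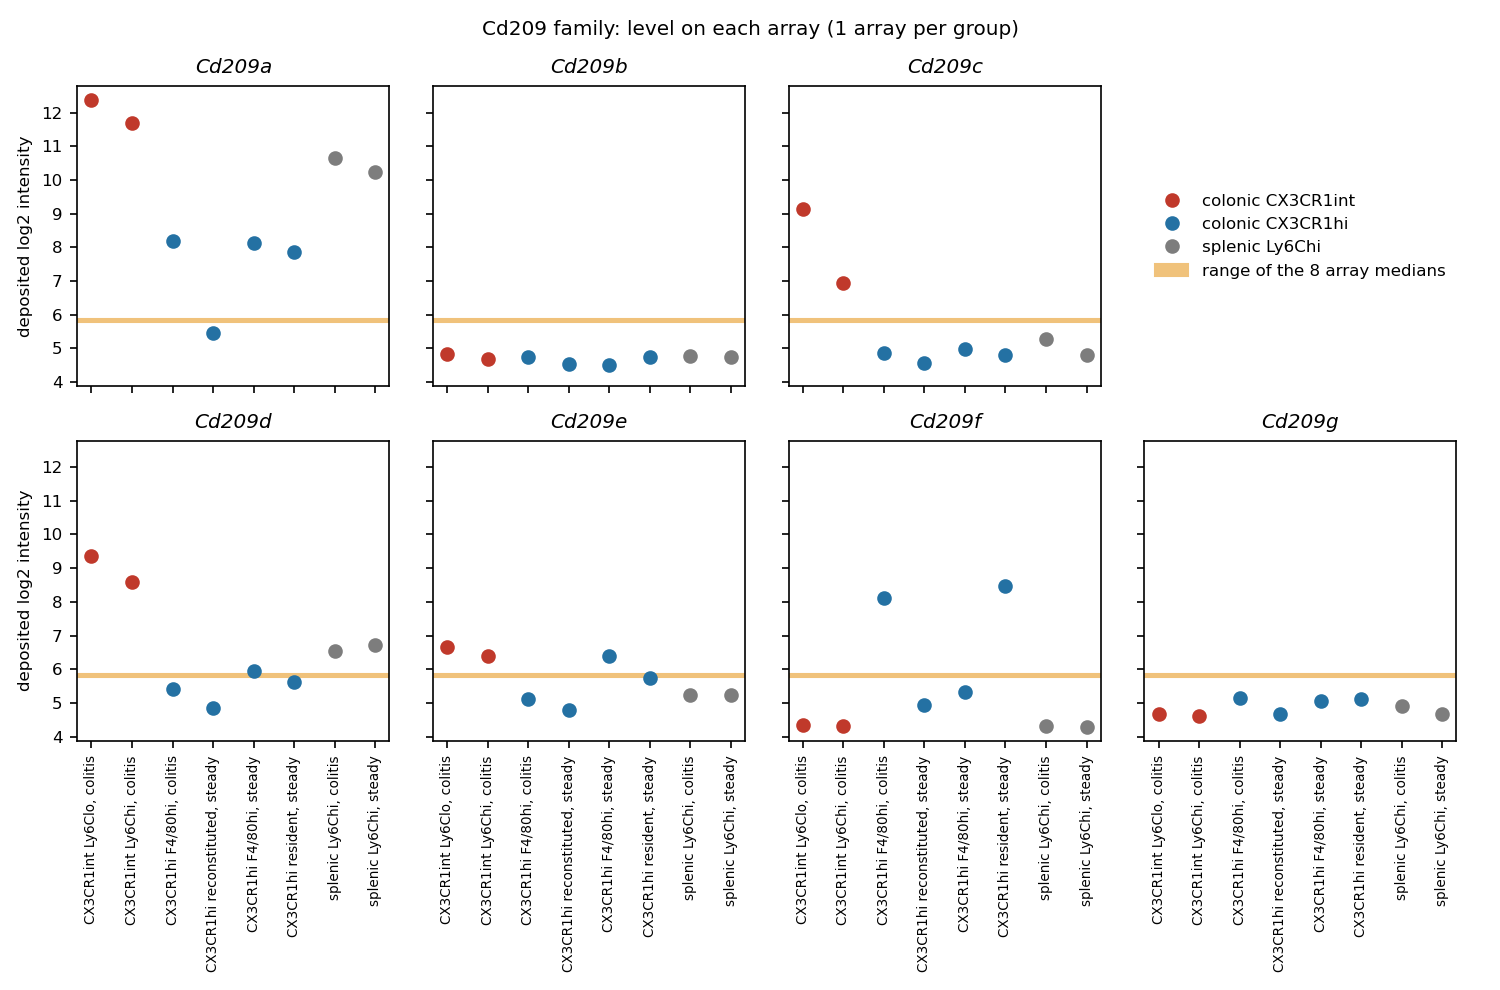
Level of each of the 7 Cd209 members on each of the 8 arrays (deposited log2 intensity, 1 point per array, 1 array per group), with the range of the array medians as a band. Cd209a, Cd209c and Cd209d are highest on both CX3CR1int arrays, Cd209f is above the band on the colitis F4/80hi and resident arrays, and Cd209b and Cd209g lie below the band on all 8.

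In the contrast that chose the family, CX3CR1int minus CX3CR1hi means, Cd209a was higher by 4.63, Cd209d by 3.51, Cd209c by 3.24 and Cd209e by 1.02, and Cd209f had a difference of -2.38. Thus 4 of 5 members past the filter were at least 2-fold higher and 1 was at least 2-fold lower. Over all 10673 genes 5.12% were 2-fold higher and 10.4% were 2-fold lower. The same 4 members had both CX3CR1int arrays above all 4 CX3CR1hi arrays and Cd209f had both below, which held in 23.6% and 25.3% of all genes. Cd209e lay just inside the 2-fold mark, and Cd209b and Cd209g lay outside the filter. Both CX3CR1int arrays came from colitis, while 1 of 4 CX3CR1hi arrays did, so colitis and population are partly confounded in this contrast.

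The splenic arrays took no part in choosing the family, whereas the colonic arrays did, so the tests against splenic monocytes are independent of the choice on 1 side only. Both contrasts share the 2 splenic arrays. Against splenic monocytes, Cd209c and Cd209d rose in CX3CR1int cells. The log2 fold change of Cd209d was 2.33 (SE 0.365, 95% interval 1.49 to 3.18, limma adjusted p = 0.00458). That of Cd209c was 3.00 (SE 0.592, 95% interval 1.63 to 4.38, limma adjusted p = 0.0109), and without the steady-state splenic array it was 2.77 with an adjusted p of 0.0832. It was 1.91 without the CX3CR1int Ly6Clo array and 4.10 without the CX3CR1int Ly6Chi array, and with only the arrays of the contrast its adjusted p was 0.0937. Cd209c passed the filter through the CX3CR1int arrays alone, and with no filter on dim genes its adjusted p was 0.0198. Cd209a had 1.59 (95% interval -0.38 to 3.57, adjusted p = 0.204), Cd209e 1.29 (0.22 to 2.36, adjusted p = 0.0775) and Cd209f 0.04 (adjusted p = 0.985). These 3 did not pass. Of the 5 members tested 2 rose and 0 fell, where 10.2% of all genes rose and 14.2% fell. This count was partly fixed by the choice of the family and, for Cd209c, by the filter.

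In CX3CR1hi cells Cd209a and Cd209d fell relative to splenic monocytes. The log2 fold change of Cd209a was -3.04 (SE 0.736, 95% interval -4.74 to -1.33, limma adjusted p = 0.0104). That of Cd209d was -1.18 (SE 0.316, 95% interval -1.91 to -0.45, limma adjusted p = 0.0159). Without the reconstituted array Cd209a had -2.38 with an adjusted p of 0.000665. Both calls were lost when either splenic array was left out, while the fold changes stayed near their size and the standard errors grew. Cd209a had -2.84 (SE 1.01, adjusted p = 0.0726) without the colitis splenic array and -3.23 (SE 1.01, adjusted p = 0.0516) without the steady-state one. Cd209d had -1.28 (SE 0.436, adjusted p = 0.0639) and -1.08 (SE 0.436, adjusted p = 0.106) in the same order. Cd209f had a log2 fold change of 2.42 (SE 1.00, 95% interval 0.096 to 4.75, adjusted p = 0.0764), and without the reconstituted array it had 3.02 with an adjusted p of 0.0306. Cd209e had 0.27 (adjusted p = 0.591) and Cd209c -0.23 (adjusted p = 0.722). Of the 5 members tested 0 rose and 2 fell, where 22.2% of all genes rose and 29% fell.

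**Figure D3:**
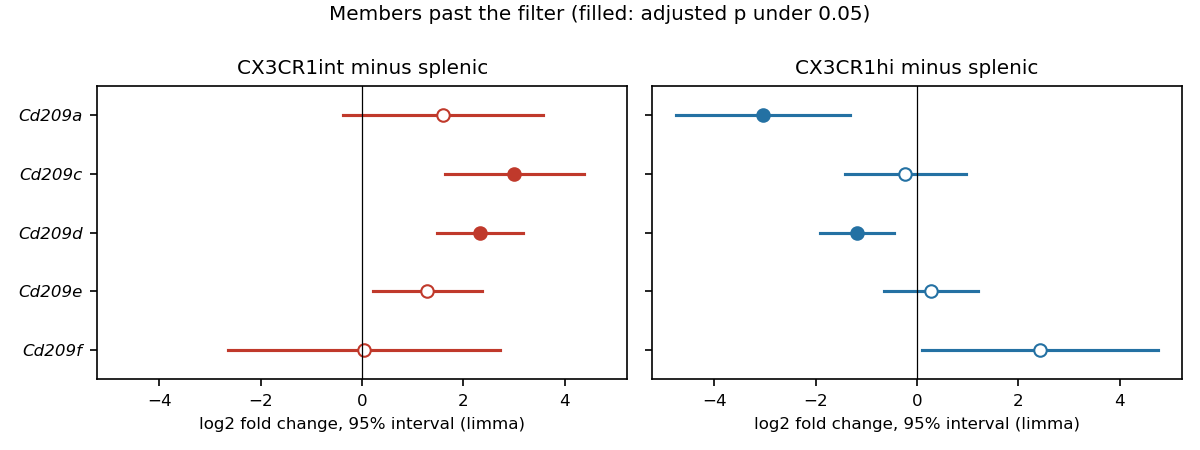
Log2 fold change of the 5 Cd209 members past the filter in CX3CR1int (left) and CX3CR1hi cells (right) over splenic Ly6Chi monocytes, with 95% intervals from limma; filled points have an adjusted p under 0.05. Cd209c and Cd209d lie above 0 on the left, and Cd209a and Cd209d lie below 0 on the right.

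Within the colitis samples the step between splenic Ly6Chi monocytes and each CX3CR1int fraction can be read from single arrays, with no replicate and no test. In CX3CR1int Ly6Chi cells all 4 members past the brightness filter were at least 2-fold higher than in colitis splenic monocytes, with differences of 2.05 for Cd209d, 1.67 for Cd209c, 1.17 for Cd209e and 1.05 for Cd209a, where 9.79% of all genes were. In CX3CR1int Ly6Clo cells the same 4 were higher by 3.87 for Cd209c, 2.81 for Cd209d, 1.74 for Cd209a and 1.43 for Cd209e, where 13.2% of all genes were. Both comparisons share the splenic array. Cd209c and Cd209e were below the median on that array and passed through the CX3CR1int arrays alone. The CX3CR1int arrays also took part in choosing the family, so these counts were partly fixed in advance.

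Between the CX3CR1int fractions themselves Cd209c stood out in size. It was 2.20 higher in Ly6Clo than in Ly6Chi cells, and 6.46% of all genes were at least 2-fold higher. Cd209d (0.76), Cd209a (0.69) and Cd209e (0.27) differed by less than 2-fold. Dendritic cell markers moved the same way, with 10 of 11 at least 2-fold higher in Ly6Clo cells and a median difference of 1.82, against 0.01 over all genes. Among them Flt3, the receptor for a dendritic cell growth factor, was 11.16 in Ly6Clo and 9.03 in Ly6Chi cells. Itgae, which encodes the CD103 integrin, was 9.47 and 5.64, and Zbtb46, a transcription factor of conventional dendritic cells, was 6.86 and 4.67. Monocyte markers moved the other way, with 5 of 6 at least 2-fold lower and a median difference of -4.21, against 0.01 over all genes. The part of these shifts in the Cd209c difference was not tested.

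Reconstituted macrophages differed from resident macrophages in both Cd209 members that were bright enough to compare. The differences were -3.56 for Cd209f and -2.40 for Cd209a, where 1.09% of all genes were at least 2-fold lower. Both were below the median on the reconstituted array and passed through the resident array alone. The resident array also took part in choosing the family, so the direction was partly fixed in advance. Cd209d (-0.77) and Cd209e (-0.94) were below the median on both arrays. The difference between steady-state F4/80hi and resident cells, the pair nearest to a repeat although their sexes differ, had an SD over genes of 0.396. In that pair Cd209a differed by 0.28, Cd209d by 0.31 and Cd209e by 0.66. The difference of Cd209f was -3.16 (F4/80hi minus resident), where 3.36% of all genes were at least 2-fold lower. Here too Cd209f passed through the resident array alone. The low Cd209a level was thus seen on the reconstituted array alone of the 4 CX3CR1hi arrays, and the low Cd209f level on both the reconstituted and the steady-state F4/80hi arrays, which differed by -0.40 for Cd209f (reconstituted minus F4/80hi).

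Cd209f and Cd209e differed between colitis and steady state in opposite directions. In colitis F4/80hi cells Cd209f was higher than in steady-state F4/80hi cells by 2.80, and 1.23% of all genes were at least 2-fold higher. The difference of Cd209e was -1.28, and 0.243% of all genes were at least 2-fold lower. Both members passed the brightness filter through their brighter array alone. Cd209a differed by 0.05 and Cd209d by -0.53. The result depends on which steady-state array is used. Against the resident array Cd209f differed by -0.36, Cd209e by -0.62, Cd209a by 0.32 and Cd209d by -0.23. Against the reconstituted array Cd209f differed by 3.20, Cd209e by 0.33, Cd209a by 2.73 and Cd209d by 0.54. The small Cd209a difference in colitis therefore did not hold against the reconstituted array. In splenic monocytes both bright members lay within 2-fold of steady state in colitis, with differences of 0.40 for Cd209a and -0.20 for Cd209d, where 0.708% of all genes changed 2-fold in either direction.

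**Figure D4:**
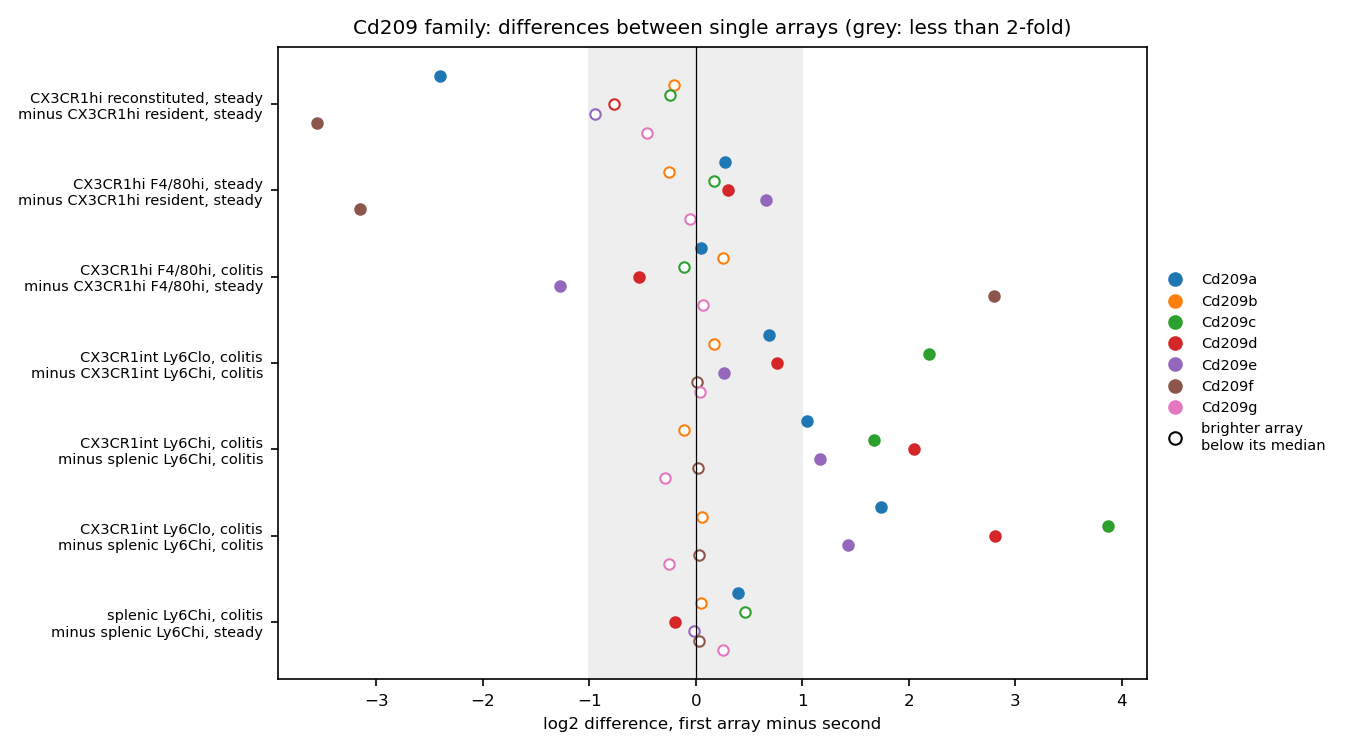
Log2 difference of each Cd209 member in the 7 comparisons of single arrays (first array minus second); the grey band marks less than 2-fold and open points mark members below the median on the brighter array. Cd209f reaches -3.56 and -3.16 against resident cells and 2.80 in colitis, and Cd209c reaches 3.87 in CX3CR1int Ly6Clo over colitis splenic cells.

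Markers of long-lived tissue macrophages moved with Cd209f only in part. Their list mean was 7.48 and 7.08 in CX3CR1int Ly6Clo and Ly6Chi cells, 10.23 in colitis F4/80hi, 9.17 in reconstituted, 9.44 in steady-state F4/80hi and 9.79 in resident cells, and 6.19 and 5.93 in splenic monocytes. The scavenger receptor Cd163 was 9.14 in colitis F4/80hi, 5.99 in reconstituted, 7.60 in steady-state F4/80hi and 8.22 in resident cells. Folr2, a folate receptor, stayed between 9.19 and 9.96 on these 4 arrays. In reconstituted against resident cells 0 of 10 long-lived markers were at least 2-fold higher and 3 were at least 2-fold lower. In colitis against steady-state F4/80hi cells 4 of 11 were at least 2-fold higher and 0 lower.

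Pancreatic enzyme RNA also moved with Cd209f over the CX3CR1hi arrays. The list mean of 4 acinar genes was 8.19 in colitis F4/80hi, 5.67 in reconstituted, 5.35 in steady-state F4/80hi and 8.81 in resident cells. It was 5.00 in CX3CR1int Ly6Clo, 8.59 in CX3CR1int Ly6Chi and 5.11 and 5.07 in splenic cells. On the CX3CR1int Ly6Chi array the list mean of the enzyme genes was close to that in resident cells while Cd209f was 4.32. All 4 acinar genes were at least 2-fold lower in reconstituted and in steady-state F4/80hi cells than in resident cells, and 3 of 4 were at least 2-fold higher in colitis than in steady-state F4/80hi cells. Stromal markers averaged 8.21 in colitis F4/80hi, 6.51 in reconstituted, 7.08 in steady-state F4/80hi and 7.34 in resident cells. The part of these lists in the Cd209f differences was not tested.

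**Figure D5:**
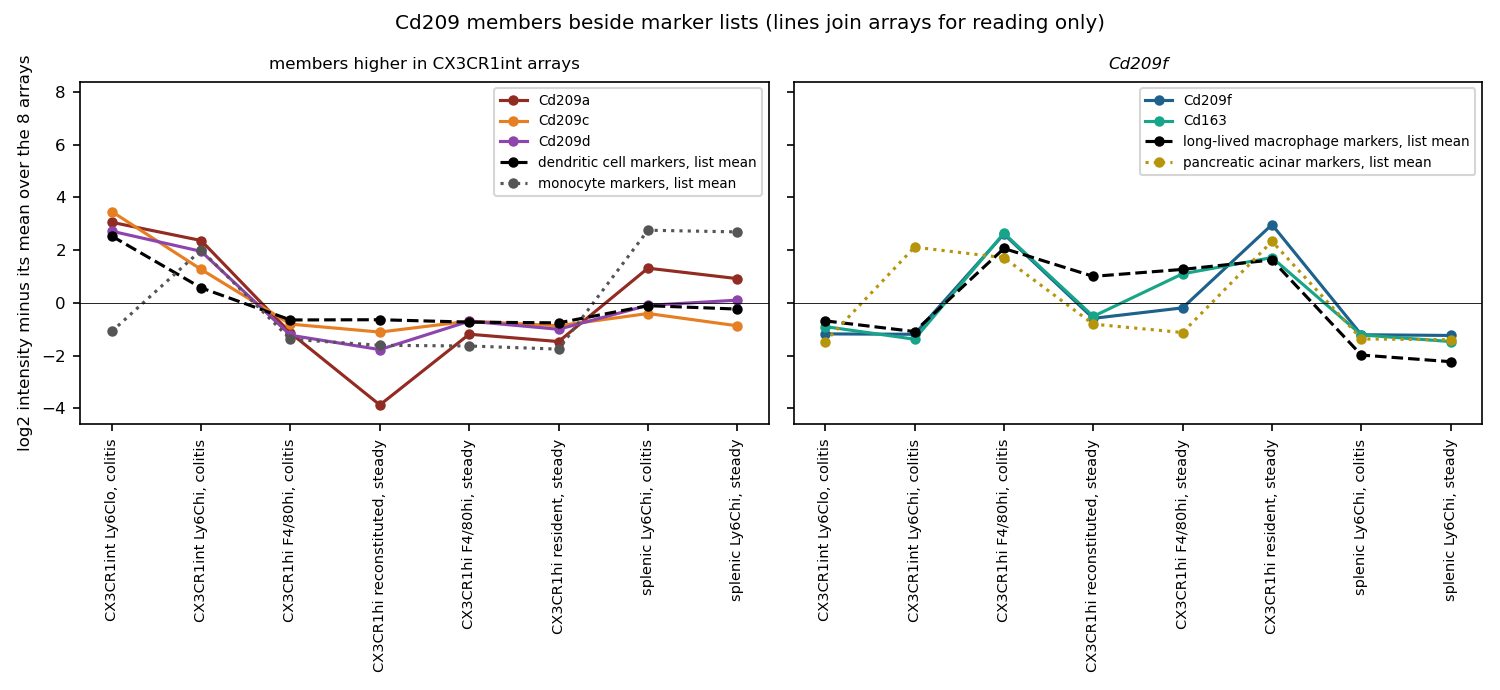
Cd209a, Cd209c and Cd209d beside dendritic cell and monocyte marker lists (left) and Cd209f beside Cd163, long-lived macrophage and pancreatic acinar marker lists (right), each as log2 intensity minus its own mean over the 8 arrays. The dendritic cell list mean is 9.91 in CX3CR1int Ly6Clo cells and 7.94 in CX3CR1int Ly6Chi cells, and the acinar list mean is high on the CX3CR1int Ly6Chi array, where Cd209f is low.

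The genes most like each member were taken by Pearson's r over the 8 arrays, as a description over arrays that fall into 3 populations. For Cd209c these were Ccr7 (0.993), Kmo (0.993), Cenpl (0.989), Klrd1 (0.988) and Wnt11 (0.986). Ccr7, the receptor that guides dendritic cells to lymph nodes, was 11.66 in CX3CR1int Ly6Clo and 9.21 in CX3CR1int Ly6Chi cells, 6.33 to 6.52 in CX3CR1hi cells and 6.69 and 6.25 in splenic monocytes. For Cd209d they were Fyn (0.991), Atrip (0.982), Cd7 (0.981), Tut1 (0.979) and Plekhg2 (0.976). Cd7, a surface protein best known from T and NK cells, was 10.56 and 9.77 in CX3CR1int Ly6Clo and Ly6Chi cells, 4.72 to 4.93 in CX3CR1hi cells and 6.47 and 6.31 in splenic monocytes. Of the 7 T and NK cell markers 6 were below the median on all 8 arrays, among them Cd3e with 5.57 and 5.86 in CX3CR1int Ly6Clo and Ly6Chi cells, 4.76 to 5.06 in CX3CR1hi cells and 5.51 and 5.08 in splenic monocytes. The other, Cd4, was 5.64 and 5.68 in CX3CR1int cells, 10.16 to 10.80 in CX3CR1hi cells and 5.28 and 5.32 in splenic monocytes.

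For Cd209a the nearest genes were H2-T10 (0.985), Prkar1a (0.982), Csnk1d (0.980), Map3k1 (0.979) and Ipcef1 (0.974). All 5 had their lowest level on the reconstituted array, as Cd209a did, which their choice by r over the same arrays largely fixed. H2-T10 was 6.76 on the reconstituted array and 7.13 to 7.23 on the other 3 CX3CR1hi arrays. For Cd209f they were Spats2l (0.957), Ctla2b (0.946), Lin7c (0.941), Zfp938 (0.940) and Alg14 (0.938). Spats2l was 6.18 in colitis F4/80hi, 5.42 in reconstituted, 5.82 in steady-state F4/80hi and 6.34 in resident cells, a far narrower span than that of Cd209f. Cd209e had no gene above 0.912 (Tmem198b), followed by Sel1l (0.900), Arfgap2 (0.882), Donson (0.867) and Eif4e (0.854).

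The genes next to the cluster were dim on nearly all arrays. The nearest on the side of Cd209a were Gm16553, which was not measured, Clec4g, a related lectin of sinusoidal endothelium, and Fcer2a, the low-affinity IgE receptor. On the side of Cd209g they were 4932443L11Rik, Evi5l and Prr36. None of the measured neighbours passed the filter. Clec4g was 6.38 in CX3CR1int Ly6Clo cells, its only array above the median, against 5.08 in CX3CR1int Ly6Chi, 4.62 to 4.81 in CX3CR1hi and 5.14 and 4.81 in splenic cells. Fcer2a was highest in splenic monocytes, at 5.92 in colitis and 5.47 in steady state, and the 3 neighbours on the other side were below the median throughout.

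Outside the family, the mannose receptor and a galactose-type lectin rose in both colonic populations. Of 13 listed glycan-binding lectin genes 7 passed the filter. In CX3CR1int cells 2 rose and 1 fell against splenic monocytes (median 1.32, all genes -0.08), where 10.2% of all genes rose and 14.2% fell. In CX3CR1hi cells 3 rose and 1 fell (median 0.56, all genes -0.12), where 22.2% of all genes rose and 29% fell. Mrc1, the macrophage mannose receptor, rose by 2.32 in CX3CR1int cells (adjusted p = 0.00185) and by 4.28 in CX3CR1hi cells (adjusted p = 1.73e-05). Mgl2, a galactose-type lectin, rose by 3.39 (adjusted p = 0.0113) and by 4.61 (adjusted p = 0.000555) in the same populations. Clec10a, also of that type and named after its values were seen, did not pass in either. It had 1.32 (adjusted p = 0.127) in CX3CR1int and 0.01 (adjusted p = 0.989) in CX3CR1hi cells. Cd302 had log2 fold changes of -1.96 (adjusted p = 0.0153) and -1.45 (adjusted p = 0.0128). Asgr2, an asialoglycoprotein receptor subunit, rose by 1.39 in CX3CR1hi cells (adjusted p = 0.00157). Ly75, the dendritic cell lectin DEC-205, had 2.17 in CX3CR1int cells and did not pass (adjusted p = 0.115).

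Of 24 listed genes of lectin receptor signalling 20 were measured and 19 passed the filter. In CX3CR1int cells 3 rose and 1 fell (median -0.04), against 10.2% and 14.2% of all genes. In CX3CR1hi cells 2 rose and 9 fell (median -0.29), against 22.2% and 29% of all genes. In CX3CR1int cells the NF-kappaB subunit gene Relb rose by 1.40 (adjusted p = 0.00867), Malt1, which relays Card9 signals, by 1.25 (adjusted p = 0.0157) and the kinase gene Src by 0.85 (adjusted p = 0.0170). Arhgef12 had 0.62 (adjusted p = 0.0509). The gene that fell, picked out after its value was seen, was Bcl10, the partner of Malt1, with -0.57 (adjusted p = 0.0409). In CX3CR1hi cells Lsp1, which in human cells binds the tail of DC-SIGN, fell with a log2 fold change of -3.40 (adjusted p = 0.000214). Plcg2 also fell, with -1.57 (adjusted p = 4.64e-05). Src rose by 2.99 (adjusted p = 1.35e-05) and Arhgef12 by 2.77 (adjusted p = 1.92e-05).

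All 4 host glycoprotein genes known to carry DC-SIGN ligands passed the filter, and in each colonic population 0 rose and 2 fell (medians -0.81 in CX3CR1int and -0.98 in CX3CR1hi cells). Of all genes 14.2% fell in CX3CR1int and 29% in CX3CR1hi cells. Icam2, an adhesion molecule of endothelium and leukocytes, fell with -1.49 in CX3CR1int cells (adjusted p = 0.00952) and -1.97 in CX3CR1hi cells (adjusted p = 0.000496). It reached the median on the 2 splenic arrays alone, so its fall was partly fixed by the filter. Itgb2, the beta chain of the integrin Mac-1, fell with -0.98 (adjusted p = 0.00906) and -1.40 (adjusted p = 0.000315). Its partner Itgam had -0.64 (adjusted p = 0.168) and -0.56 (adjusted p = 0.120). Ceacam1 had -0.44 (adjusted p = 0.263) and 0.46 (adjusted p = 0.135).

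GM-CSF and IL-4 are cytokines long used in culture to obtain dendritic cells that carry DC-SIGN, and FLT3 ligand supports dendritic cells in the body. Of 14 listed receptor and factor genes of these pathways 13 were measured and passed the filter. In CX3CR1int cells 3 rose and 2 fell (median -0.08), beside 10.2% and 14.2% of all genes. In CX3CR1hi cells 4 rose and 6 fell (median -0.31), beside 22.2% and 29% of all genes. In CX3CR1int cells the IL-4 receptor gene Il4ra rose by 1.24 (adjusted p = 0.00616) and Csf2rb2, a cytokine receptor subunit, by 0.92 (adjusted p = 0.00747), whereas Il13ra1 fell with -0.87 (adjusted p = 0.0215). Flt3 had 1.27 in CX3CR1int cells (adjusted p = 0.140) and fell in CX3CR1hi cells with -3.69 (adjusted p = 0.000680). Its levels were 11.16 and 9.03 in CX3CR1int Ly6Clo and Ly6Chi cells, 4.87 to 5.32 in CX3CR1hi cells and 8.80 and 8.85 in splenic monocytes, the same order of populations as for Cd209a. In CX3CR1hi cells Stat5b (-1.45, adjusted p = 0.000652) and Stat5a (-1.23, adjusted p = 0.000783), which relay GM-CSF signals, and Irf4 (-1.23, adjusted p = 0.0161), a factor of monocyte-derived dendritic cells, also fell. The 4 genes that rose there, named after their values were seen, were Pparg (1.16, adjusted p = 0.00101), Klf4 (0.96, adjusted p = 0.00234), Il4ra (0.92, adjusted p = 0.00423) and Csf2rb2 (0.42, adjusted p = 0.0370).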

How the data were processed

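Per the labels, biotin-labelled total RNA of the sorted cells was run on Affymetrix arrays. RMA and Partek are named in the submitters' processing notes, and the values that the authors deposited are on a log2 scale. Versions and the genome build are not given in the sources used here. Probe sets were named from the platform annotation: of 35399, 21789 carried 1 symbol, 1621 several, and 11989 were unnamed. Sequences of the probes were not used, so cross-hybridisation between Cd209 paralogs was not tested. Gene order and promoters came from RefSeq tables (GRCm38.p6).

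For the populations, lmFit and eBayes of limma 3.58.1 (R 4.3.3) were run on 10673 genes over all 8 arrays. The fit had 5 residual degrees of freedom, and p-values were adjusted by Benjamini-Hochberg with a threshold of 0.05. The number of arrays limits the precision. Single arrays were compared without a test, for genes whose brighter array reached its median, over 7 comparisons. The fit was also run on simulated data with independent noise. That run cannot show how well arrays with different labels serve as replicates. Promoter pairs were aligned with Biopython 1.88. Other steps used Python 3.11.15, numpy 2.4.6, pandas 2.3.3 and matplotlib 3.10.9.

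The members, the 4 pathway lists and the 16 marker lists were chosen with earlier results of these data known. Genes named by rule were all members, the 5 genes most like each (predicted genes, clones and small RNAs left out), the 3 nearest genes on each side of the cluster and, per pathway list and contrast, the 4 members with the largest absolute fold change. Single genes of the marker lists, such as Cd163, Folr2, Itgae, Zbtb46, Marco, Cd5l and Cd3e, were picked by hand outside this rule. They do not stand for their lists. Alternatives were other probe set summaries, brightness filters (none, 75th percentile), median centring, repeated quantile normalization, sex as labelled as a block, the contrast's arrays alone, a trended robust prior, other steady-state arrays and leaving out each array.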

Additional observations from a re-analysis of the deposited data

Results flagged for a closer look

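Among the 4 CX3CR1hi arrays, Cd209a on the reconstituted array (5.45) stood apart from the other 3 (7.86 to 8.18), with a gap to the nearest of 0.881 of the whole range, above Dixon's critical value for 4 samples. Cd209g on the same array (4.67) also stood apart from the others (5.07 to 5.14), with 0.859 of the range, but it was below the array median on all 8 arrays. All 7 members were examined this way. Chance alone sets about 1 in 20 groups apart when the samples are repeats of 1 condition. These 4 arrays have different labels and took part in choosing the family, so that rate does not apply to them. The rule serves here only to flag values, and the share of all genes that it would flag was not counted.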

How the results depend on the processing

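No paired analysis was possible because the labels carry no replicate numbers and each group has 1 array. The number of genes called in CX3CR1hi against splenic cells was 5466, and it was 3505 with the 75th percentile filter, which tests fewer genes, and 3246 to 5161 with 1 array left out, lowest without the colitis (3480) or the steady-state splenic array (3246). In CX3CR1int against splenic cells it was 2605, and it was 947 with only the arrays of the contrast and 735 to 3763 with 1 array left out, lowest without the colitis (1016) or the steady-state splenic array (735). Where 1 splenic or CX3CR1int array remained, it was assumed to vary like the others. Of the member differences between single arrays, pooled over all comparisons, 14 were at least 2-fold, and 8 with the 75th percentile filter. Several of these comparisons share an array, so the pooled differences are not independent. The pooled count was partly fixed by the choice of the family and by the filter. The share of all genes over the pooled comparisons was not counted, so the count only shows how the filter changes it.

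The Cd209d rise in CX3CR1int over splenic cells passed under all 12 alternatives (adjusted p 0.00220 to 0.0358). The Cd209c rise passed under 9 of 11 (9.12e-05 to 0.0937). It missed without the steady-state splenic array and with only the arrays of the contrast. The falls of Cd209a and Cd209d in CX3CR1hi cells passed under 12 of 14 each (0.000665 to 0.0726 and 0.00881 to 0.106). Cd209e in CX3CR1int cells passed only with the arrays of the contrast alone (adjusted p = 0.0302). The sign turned for values that were not called, and the cause was not tested. These were Cd209e (-0.025 without the steady-state F4/80hi array; 1 array left out, -0.025 to 0.51) and Cd209c (0.0017 without the colitis splenic array; -0.46 to 0.0017) in CX3CR1hi against splenic cells, and Cd209f in CX3CR1int against splenic cells with arrays centred on their medians (-0.024). In colitis against steady-state CX3CR1hi F4/80hi cells Cd209f turned to -0.36 with the resident array. With the reconstituted array Cd209e turned to 0.33 and Cd209d to 0.54, and Cd209a moved from 0.05 to 2.73. The sex block used the labels, which the steady-state splenic array fits only in part. Precision is limited by 1 array per group and, for Cd209b and Cd209g, by signal below the array median.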
